A study of Mus musculus with 3 samples.

Results

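The cells described here were ENR+CV cells in which mitochondrially encoded transcripts made up at least 8% of all unique molecular identifiers (UMIs, each counted as 1 captured transcript). They were selected from the ENR+CV cells that had 1000 to under 8000 UMIs and at least 400 detected genes, and the selection used only the share of UMIs on genes whose symbol starts with mt-. It kept 199 cells, which is 20.2% (exact binomial 95% interval 17.7 to 22.8) of the ENR+CV cells within these limits, and the same limits kept 5913 cells over all 3 libraries. The mt- share is therefore a description of the selection and not a finding. The members nearest to the limit had 8%, 8.02% and 8.08%, and the nearest cells left outside had 7.99%, 7.95% and 7.91%. They were compared with 127 ENR+CV cells at 4% to under 8%, with the mt- genes taken out of all totals, and were set beside the remaining 659 ENR+CV cells, which were under 4%.

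The study profiled mouse intestinal organoids by Seq-Well, a picowell method in which each cell's RNA is captured on a barcoded bead by oligo-dT. Crypts came from the proximal small intestine of C57BL/6 mice, both sexes being used at 3 to 6 months of age, and the cultures of the 3 libraries went back to 1 donor. All media held EGF, Noggin and R-spondin 1 (ENR), and each condition was sampled at day 6 as 1 library. ENR+CV further held 3 µM CHIR99021, a GSK3 inhibitor that drives Wnt signaling, and 1 mM valproic acid, a histone deacetylase inhibitor. It kept the culture enriched for intestinal stem cells (ISCs) and supplied the cells for the other cultures. ENR alone let the cells differentiate into several lineages, and ENR+CD held 3 µM CHIR99021 and 10 µM DAPT, a gamma-secretase inhibitor that blocks Notch, which directs cells toward Paneth cells. With 1 library per condition there was no replicate, cells of 1 library are not replicates of a condition, and no test between groups was possible. All intervals below cover counting error only.

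Mitochondria transcribe their own small genome into ribosomal RNAs, transfer RNAs and the messages of respiratory chain subunits, and these stay inside the organelle. In single-cell work a high share of such RNA is a common reason to set cells aside. Small nucleolar RNAs (snoRNAs) reside in the nucleolus, where H/ACA members guide pseudouridylation and C/D members guide methylation of ribosomal RNA, while small Cajal body RNAs (scaRNAs) act on spliceosomal RNAs. Most of these RNAs, like the spliceosomal small nuclear RNAs (snRNAs), 7SK and the RNA of RNase P, carry no long poly(A) tail.

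Intron-encoded snoRNA and scaRNA models that were higher in the high-share cells than in cells at 4% to under 8% are shown first, since 53 of the 85 genes at least 2-fold higher were small RNA genes. Sequences are GENCODE vM21 transcripts on GRCm38 (mm10), written 5′ to 3′ as DNA. Capitals mark an ACA that ends 2 or 3 bases before the 3′ end, the position it has in an H/ACA RNA. Gm25588 (chr1:153440079-153440218, plus strand) lies within an intron of Shcbp1l, Gm22620 (chr9:15315189-15315321, plus strand) within Taf1d, Gm26205 (chr5:121205010-121205143, plus strand) within Rpl6, Gm24616 (chr16:23111617-23111755, plus strand) within Eif4a2, and the scaRNA Gm24289 (chr9:64295931-64296065, plus strand) within Tipin.
Gm25588: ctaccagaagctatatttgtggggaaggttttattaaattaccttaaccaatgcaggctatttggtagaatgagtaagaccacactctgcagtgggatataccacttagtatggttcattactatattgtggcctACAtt
Gm24616: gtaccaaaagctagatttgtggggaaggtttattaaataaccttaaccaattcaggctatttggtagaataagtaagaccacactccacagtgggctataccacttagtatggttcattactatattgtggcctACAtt
Gm22620: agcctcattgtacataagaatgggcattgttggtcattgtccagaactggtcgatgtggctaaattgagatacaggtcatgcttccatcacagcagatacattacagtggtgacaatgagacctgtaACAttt
Gm26205: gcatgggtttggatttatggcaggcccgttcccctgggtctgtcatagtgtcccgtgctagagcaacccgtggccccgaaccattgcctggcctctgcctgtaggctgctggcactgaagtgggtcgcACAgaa
Gm24289: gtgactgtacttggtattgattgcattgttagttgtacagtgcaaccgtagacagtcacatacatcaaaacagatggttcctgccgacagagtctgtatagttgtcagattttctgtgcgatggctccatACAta

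Gm25588 and Gm24616 were identical at 130 of 140 aligned bases (92.9%), so reads of one could be placed on the other and the levels of this pair cannot be separated with certainty. Gm22620 and Gm26205 were each at most 56.4% identical to Gm25588. An ACA at this position was present in 7 of the 18 snoRNA models with enough UMIs to compare (38.9%) and in 638 of all 1483 annotated snoRNA models (43.0%), so the compared snoRNAs held it about as often as the annotation at large. The C/D-type snoRNA Snord118 (chr11:69073427-69073561, plus strand), or U8, which takes part in maturation of the large subunit RNAs, is shown for contrast, with the letters CTGA near its 3′ end in capitals.
Snord118: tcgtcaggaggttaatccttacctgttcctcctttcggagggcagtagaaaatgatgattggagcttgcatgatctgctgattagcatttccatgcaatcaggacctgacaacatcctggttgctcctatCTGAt

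Each library stood on its own array. The tables deposited library by library went against their labels, in that cells named ENR+CV in the merged table were found in the file of the ENR+CD sample and ENR+CD cells in that of ENR+CV. The merged names were followed here, and all 1092 ENR+CV cells of the merged table matched a barcode with identical counts. The limits on depth removed 101 ENR+CV cells with 8000 or more UMIs, of which 0 had an mt- share of 8% or more, and 6 cells with fewer than 400 genes, all of which did. A share of 8% or more was far more frequent in the other libraries, at 2224 of 2545 ENR cells (87.4%) and 1000 of 2383 ENR+CD cells (42.0%). No barcode of a member was found in another library.

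The high-share cells were shallow. They had a median of 1412 UMIs (1001 to 7074) and 772 genes (402 to 2768), against 1635 UMIs and 1023 genes at 4% to under 8%, and 3258 UMIs and 1829 genes under 4%. After every cell was thinned to 800 UMIs without mt- genes, which left out 19 of the 199 members and none of the other cells, the medians were 593.5, 613 and 624 genes. The difference in detected genes was thus smaller at equal UMI number. Reads behind each UMI were not matched: genes that are neither mt- nor small RNA rested on 7.80 reads per UMI in the members, 9.21 in the comparison cells and 10.8 under 4%. In all, 343977 UMIs stood behind the members, 286035 of them outside the mt- genes, against 284190 outside the mt- genes in the comparison cells.

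Ribosomal RNA made up most of the mitochondrial signal. The mt- share of the members had a median of 14.8% and ran from 8% to 67.5%. mt-Rnr2, the large mitochondrial ribosomal RNA, held 52.0% of the mitochondrial UMIs and mt-Rnr1, the small one, 22.0%, and the messages together held 25.1%. The corresponding mRNA share was 21.3% at 4% to under 8% and 20.3% under 4%. Among the messages, mt-Nd1 held 7.26%, mt-Co1 4.85%, mt-Cytb 4.07%, mt-Nd2 3.90%, mt-Nd5 2.76% and mt-Nd4 1.74%. These encode subunits of complex I, complex IV (mt-Co1) and complex III (mt-Cytb). mt-Co1 took 3.06% of the mitochondrial UMIs at 4% to under 8% and 1.97% under 4%, and mt-Nd5 took 1.69% and 1.21%, so both held a larger part in the members. mt-Nd3 went the other way, at 0.324% in the members, 0.638% and 1.06%. mt-Co3 (0.116%), mt-Nd6 (0.0397%) and mt-Atp6 (0.0242%) were nearly absent, mt-Co2 had 3 UMIs, and mt-Atp8 and mt-Nd4l had 0, although all are transcribed from the same genome. Mitochondrial transfer RNAs held 0.932% in the members, 1.95% at 4% to under 8% and 3.54% under 4%, and only 0.0709% and 0.0565% in the ENR and ENR+CD cells with an mt- share of 8% or more.

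Outside the mitochondrial genes, nuclear-encoded small RNAs held a larger share in the members. Genes annotated as snoRNA, scaRNA, snRNA, miRNA, ribozyme, ribosomal RNA or miscellaneous small RNA held 8.14% (8.04 to 8.24) of the members' UMIs without mt- genes, 2.53% (2.47 to 2.59) of those at 4% to under 8% and 0.800% under 4%. Per cell the share ran from 0.312% over a median of 5.77% to 45.3% in the members, from 0.0928% over 1.80% to 17.4% at 4% to under 8%, and from 0% over 0.578% to 10.96% under 4%. The ranges overlapped, with the upper part of the members above every cell of the other bands. Of the 199 members, 107 (53.8%) had 5% or more, 69 had 10% or more and 31 had 20% or more, against 17, 5 and 0 of the 127 comparison cells. The number of different small RNA genes with a UMI had a median of 29 per member, 16 per comparison cell and 12 per cell under 4%, although the members were the shallowest.

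**Figure D1:**
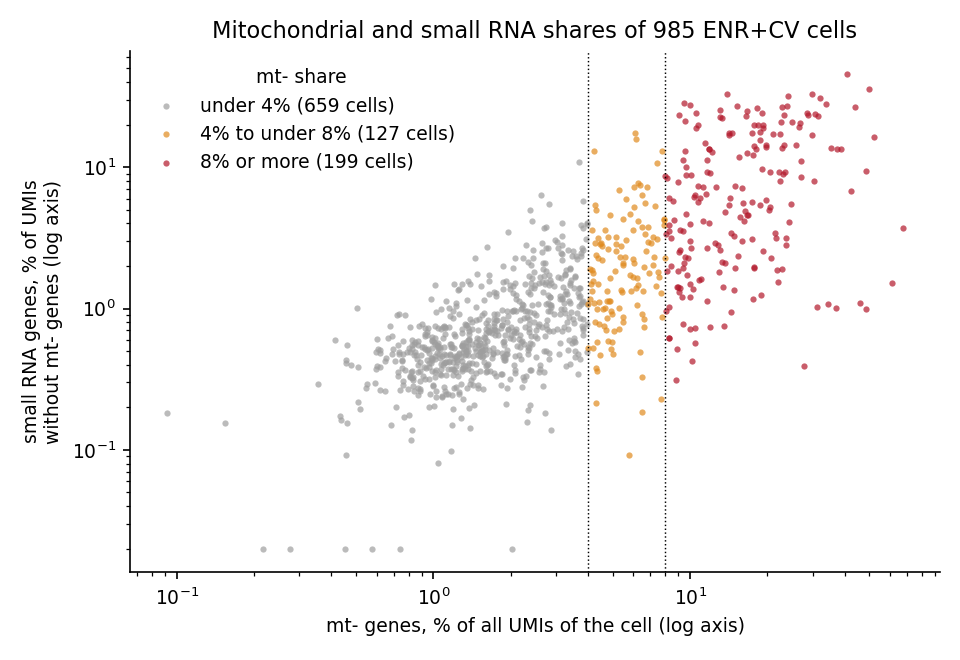
Share of UMIs on mt- genes (x axis, percent of all UMIs, log axis) and on small RNA genes (y axis, percent of UMIs without mt- genes, log axis) in the ENR+CV cells, 1 point per cell, with dotted lines at 4% and 8%. The 6 cells with no small RNA UMI are drawn at the lower edge, and shares above 20% occur only among the 199 members in red.

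The small RNA share was graded along the mt- share and had no step at 8%. The median per cell was 0.484% in the 418 cells under 2% mt-, 1.02% in 241 cells at 2% to under 4%, 1.43% in 78 cells at 4% to under 6% and 2.30% in 49 cells at 6% to under 8%. Among the members it was 2.42% in 46 cells at 8% to under 10%, 5.51% in 56 cells at 10% to under 15%, 9.79% in 39 cells at 15% to under 20%, 9.31% in 37 cells at 20% to under 30% and 13.5% in 21 cells at 30% or more. Within the members the shares were loosely related (Pearson r = 0.29, Spearman rho = 0.36 over 199 cells of 1 library, which also share their depth and total counts). The members' share was higher at every depth. In cells of 1000 to under 1200 UMIs the median was 4.62% in 67 members, 1.45% in 32 comparison cells and 0.600% in 54 cells under 4%. In cells of 1500 to under 2000 UMIs it was 9.29%, 1.73% and 0.704%. In the 16 members with 3000 UMIs or more it was only 2.77%, against 1.499% and 0.526%.

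In the other libraries the same bands differed much less. The small RNA share summed over cells was 1.03% in the 2224 ENR cells and 1.03% in the 1000 ENR+CD cells with 8% or more mt-. These were 1.60 (1.55 to 1.65) and 1.62 (1.58 to 1.65) times the shares of cells at 4% to under 8% of the same library, and the ENR+CV ratio was 3.22 (3.13 to 3.31). A large part of it there was 1 gene, the miRNA-class model Gm23935. Without Gm23935 the shares at 8% or more were 7.08% in ENR+CV, 0.485% in ENR and 0.260% in ENR+CD, and under 4% they were 0.702%, 0.191% and 0.141%. The ENR+CV library thus carried more small RNA UMIs at each mt- share, and array, culture medium and cell state cannot be told apart with 1 library each.

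**Figure D2:**
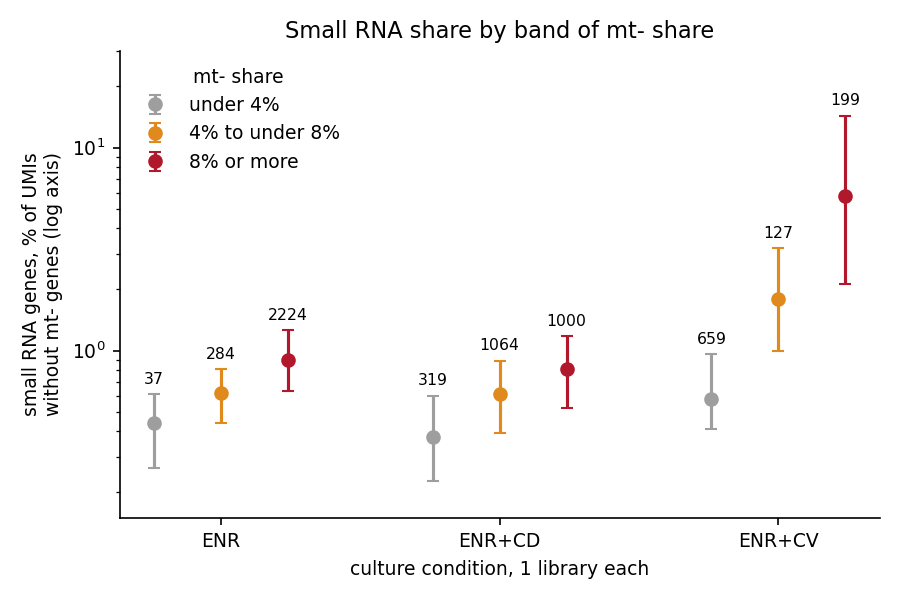
Small RNA share per cell (percent of UMIs without mt- genes, log axis) by culture condition and band of mt- share. Points are medians over cells, bars run between the quartiles over cells and the numbers count cells. The ENR+CV median of 5.77% at 8% or more stands above 0.899% in ENR and 0.813% in ENR+CD.

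Gene by gene, 2370 genes outside the mitochondrial genome had at least 50 UMIs in the members and comparison cells together. A difference of at least 2-fold in level was taken as the limit for calling a gene higher or lower, which is a rule of size and not a test. Levels are given as CPM, the UMIs of a gene per 1000000 UMIs without mt- genes. By it 85 genes were higher in the members (3.59% of those compared) and 45 were lower (1.9%). Small RNA genes made up 53 of the 85. Only 58 small RNA genes were deep enough to compare, out of 1716 listed and 825 with a UMI in the members, so 53 of 58 were higher and 0 lower, with a median ratio of 3.39 against 0.902 over all genes. A small RNA gene passes the depth limit more easily where it is high, so this count covers only the genes that passed. By class, 15 of 15 snRNAs, 16 of 18 snoRNAs, 9 of 10 miscellaneous RNAs, 4 of 6 miRNA models, 4 of 4 ribosomal RNAs, both ribozymes, both scaRNAs and Mir3068, annotated as miRNA and snoRNA, were higher. On a list of structural small RNAs drawn up by name, 13 of 14 were higher and Rny3 was not, and the list held 4.36% of the members' UMIs without mt- genes against 1.34%. The other 2312 genes split into 32 higher and 45 lower. The counts over all genes, small RNA genes included, depended on the denominator. With mt- genes kept in the totals 69 genes were higher, 50 of them small RNA genes, and 105 lower. With small RNA genes also taken out of the totals 100 were higher, 55 of them small RNA genes, and 27 lower.

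**Figure D3:**
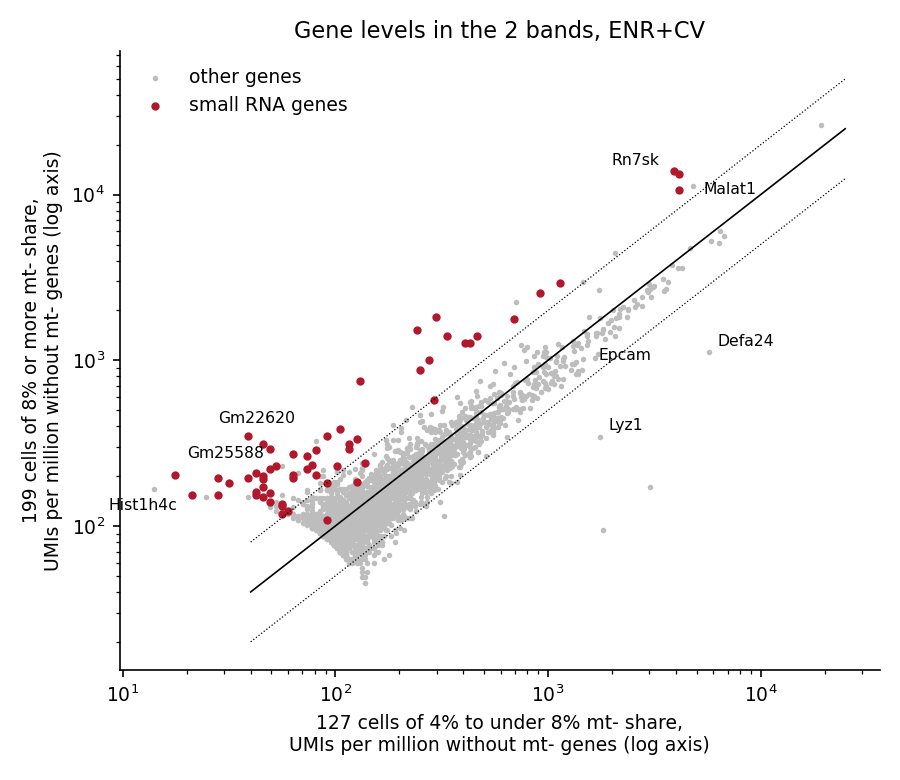
Level of each of 2370 genes in 199 members (y axis) and 127 comparison cells (x axis), in CPM without mt- genes on log axes. The solid line marks equality and dotted lines a 2-fold difference. Small RNA genes (red) lie above equality at both low and high levels, Defa24 and Lyz1 lie far below.

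Gm25588, the snoRNA given as the marker of these cells with earlier results of the data in view, was sparse. It had 52 UMIs in 35 of the 199 members, 9 UMIs in 8 of the 127 comparison cells and 21 UMIs in the 659 cells under 4%. Its level was 182 CPM (136 to 238), 31.7 (14.5 to 60.1) and 9.30 (5.76 to 14.2), with a ratio of 5.74 (2.80 to 13.3) between members and comparison cells. The highest cell held 4 of the 52 UMIs, and most members had none, so it told the members apart as a group and few of them individually. In the other libraries it had 1 UMI, in an ENR cell with 8% or more mt-. In the ENR+CD cells of 8% or more it had 0 UMIs, which allows a level of up to 1.88 CPM.

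Other intron-encoded snoRNAs had larger counts and showed the same order. Gm24616 stood at 1825 CPM in the members, with 522 UMIs in 123 cells, at 299 in the comparison cells and at 85.5 under 4%, a ratio of 6.10 (4.84 to 7.77). Gm26205 stood at 1528, 243 and 83.3, a ratio of 6.29 (4.87 to 8.23). Gm22620 had the largest ratio of the genes with at least 100 UMIs, at 350 against 38.7 CPM (9.03, 4.84 to 18.7). The intervals of all 3 bands were apart for Gm24616 and Gm26205. The scaRNA Gm24289 stood at 350 against 91.5 CPM (3.82, 2.46 to 6.13). These snoRNAs were nearly absent elsewhere: Gm24616 stood at 8.42 CPM in the ENR cells and 1.26 in the ENR+CD cells with 8% or more mt-, and Gm26205 at 12.1 and 11.9.

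The host genes with a level to compare had smaller ratios than their small RNAs. No level was available for Shcbp1l, host of Gm25588. Taf1d, host of Gm22620, stood at 192 CPM in the members and 208 in the comparison cells, a ratio of 0.926 (0.630 to 1.36). For Rpl6, host of Gm26205, the ratio was 0.811 (0.606 to 1.08), for Eif4a2, host of Gm24616, 1.25 (0.850 to 1.85), and for Tipin, host of Gm24289, 0.331 (0.162 to 0.634). Tipin, a replication fork protein, was thus 2-fold or more lower while its intronic scaRNA was higher. Some transcript model of Taf1d, Rpl6 and Eif4a2 has an exon over the snoRNA. Unspliced RNA of any host would also cover the small RNA in its intron. Host RNA and small RNA therefore cannot be told apart for these genes, Gm24289 and Gm25588 included.

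The C/D snoRNA Snord118 stood at 1766 CPM in the members, 693 in the comparison cells and 231 under 4% (2.55, 2.16 to 3.02). Its ratio was smaller than those of Gm24616 and Gm26205, with intervals that did not overlap. Between the same bands its ratio was 1.54 (0.959 to 2.63) in ENR and 0.981 (0.729 to 1.32) in ENR+CD, both intervals including equality.

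Small RNAs other than snoRNAs were higher as well. Rn7sk, the 7SK RNA that holds the elongation factor P-TEFb inactive, had 3974 UMIs in 168 members and stood at 13893 CPM, with 3916 in the comparison cells and 778 under 4% (ratio 3.55, 3.32 to 3.79). A stretch of this RNA (bases 197 to 259 of 331, chr9:78175303-78175633, minus strand) is shown. It surrounds a run of 3 A, the longest length of such a run in the model, in capitals. The stretch was not compared with the relatives of Rn7sk.
Rn7sk: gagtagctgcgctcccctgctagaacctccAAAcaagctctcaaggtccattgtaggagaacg

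The 7SK-like models Gm23037, Gm24146 and Gm23973 were 89.4%, 85.5% and 82.2% identical to Rn7sk and had ratios of 3.68 (2.86 to 4.79), 4.21 (3.36 to 5.33) and 3.64 (2.41 to 5.65), so their reads may in part be those of Rn7sk. Rpph1, the RNA of RNase P, which trims transfer RNA precursors, was detected in 192 of 199 members and stood at 13401, 4145 and 1516 CPM (3.23, 3.03 to 3.45). Part of it overlaps Ccnb1ip1 on the same strand. Rmrp, the related RNA of RNase MRP, a nucleolar enzyme that cleaves ribosomal RNA precursors, stood at 196 and 38.7 (5.06, 2.62 to 10.7). The snRNA model Gm23924 stood at 752 and 130 (5.77, 4.06 to 8.42). Rny1, a Y RNA bound by the Ro60 protein, stood at 1409, 464 and 223 (3.03, 2.49 to 3.72), while its relative Rny3 missed the 2-fold limit at 1.96 (1.499 to 2.59). Vaultrc5, an RNA of the vault particle, stood at 2552, 918 and 475 (2.78, 2.41 to 3.21). In each of these the order of the bands was the same.

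Rn7sk also followed the mt- share in the other libraries, at 412, 658 and 1311 CPM in ENR and at 197, 318 and 426 in ENR+CD, from the lowest to the highest band. Rpph1 did so at 212, 309 and 450 in ENR, and at 124, 135 and 175 in ENR+CD, with the intervals of the lower bands overlapping in both libraries. All of these were below the members' levels.

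**Figure D4:**
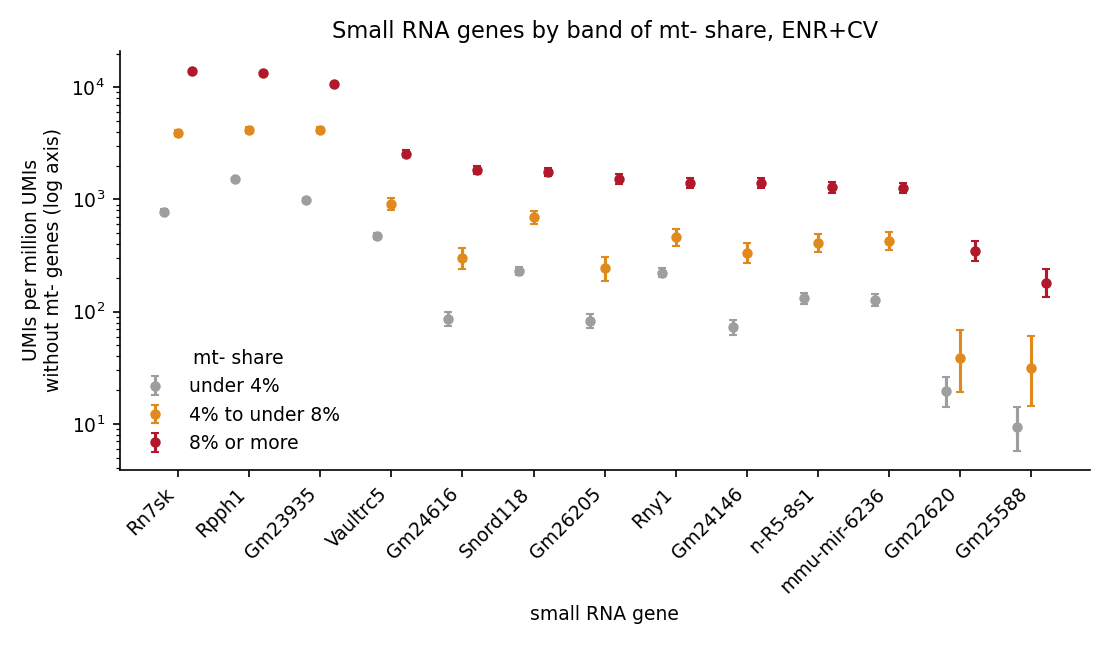
Levels of 13 small RNA genes in ENR+CV cells by band of mt- share, in CPM without mt- genes on a log axis. Bars are exact Poisson 95% intervals over UMIs. In every gene shown the 199 members stand highest and the 659 cells under 4% lowest, and only for Gm22620 do the intervals of the lower bands overlap.

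The mature miRNAs of the miRNA-class models with named products are shown with the seed (bases 2 to 8) in capitals, as RefSeq gives them on GRCm38.p6. Mir3068 (chr12:87437679-87437757, minus strand) overlaps a snoRNA model of the same symbol within Alkbh1, and mmu-miR-6236 lies at chr9:110281353-110281371 on the plus strand.
mmu-miR-3068-5p: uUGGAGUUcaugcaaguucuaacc
mmu-miR-3068-3p: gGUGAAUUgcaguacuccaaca
mmu-miR-6236: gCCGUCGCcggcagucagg

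Mir3068 stood at 315 CPM in the members and 45.7 in the comparison cells (6.88, 3.83 to 13.4), and its UMIs cannot be assigned to the miRNA precursor rather than the overlapping snoRNA. The gene listed as mmu-mir-6236 stood at 1276, 429 and 127 (2.97, 2.42 to 3.68), with 83 of its 365 UMIs in 1 member. It is also on the list of genes with ribosomal RNA sequence or that overlap it. Whether its UMIs come from the miRNA was not tested. Gm23935, the miRNA-class model above, stood at 10656, 4149 and 989 (2.57, 2.40 to 2.75). None of the seeds was shared.

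Genes with ribosomal RNA sequence or that overlap it differed in the same direction, and for 5 of the 6 on that list the 2-fold limit was passed. Of these, mmu-mir-6236 and n-R5-8s1 were already counted among the small RNA genes above. n-R5-8s1, a 5.8S ribosomal RNA model, stood at 1280, 408 and 132 CPM (3.13, 2.54 to 3.90) and had 0 UMIs in all ENR and ENR+CD cells, which allows up to 0.842 CPM in the ENR cells with 8% or more mt-. Gm26917 stood at 2241 against 711 (3.15, 2.69 to 3.71), Lars2 at 4468 against 2073 (2.16, 1.95 to 2.38) and Gm15564 at 2989 against 1457 (2.05, 1.82 to 2.31). Gm26924, present in all 199 members, missed the limit at 26392 against 19170 (1.38, 1.33 to 1.43). Lars2 encodes the mitochondrial leucyl-tRNA synthetase, and whether its UMIs come from that message was not tested.

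The long nuclear RNAs Malat1 and Neat1 were higher too. Malat1, a long noncoding RNA of nuclear speckles, was detected in 198 of 199 members and stood at 11348 CPM, with a per-cell median of 10456 and a highest cell of 67213. It stood at 4803 in the comparison cells and 3061 under 4% (2.36, 2.22 to 2.52). Neat1, the scaffold of paraspeckles, stood at 521 against 229 (2.28, 1.69 to 3.10). Of 5 RNAs deep enough to compare on a list drawn up as nuclear-retained, Malat1 and Neat1 were the pair past the limit. Gas5, which was also put on that list, was not, at 1.04 (0.893 to 1.21). Whether Gas5 is kept in the nucleus was not tested. Malat1 followed the mt- share in the other libraries as well, with ratios of 1.69 (1.60 to 1.77) in ENR and 1.52 (1.49 to 1.55) in ENR+CD between the same bands.

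Of 10 histone genes compared, 5 were higher and 0 lower, beside 3.59% higher and 1.9% lower over all genes. The list had 62 genes with a UMI in the members, and most missed the depth limit. A sparse gene passes it more easily where it is high, so this count covers only the genes that passed. Messages of most histone genes expressed in S phase end in a stem-loop and not in a poly(A) tail. Hist1h4c had 48 UMIs in 28 members and 4 in the comparison cells (11.9, 4.37 to 45.5), Hist1h2ai 43 and 7 (6.10, 2.72 to 16.1), Hist1h4h 60 and 19 (3.14, 1.85 to 5.57), Hist1h1d 83 and 33 (2.50, 1.65 to 3.86) and Hist2h2bb 52 and 24 (2.15, 1.30 to 3.65). Hist1h1b did not differ beyond counting error at 0.947 (0.714 to 1.26). The histone share was 0.449% against 0.237% when summed, but its per-cell medians were 0.215% and 0.208%, so the excess lay in some of the cells.

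No cytosolic ribosomal protein gene was past the 2-fold limit. Together they held a median of 8.48% (1.26 to 22.4) of a member's UMIs without mt- genes, 12.4% (4.82 to 21.1) in the comparison cells and 13.6% under 4%. Of 72 genes compared, 0 were higher and 0 lower, and the median log2 ratio was -0.26, beside -0.15 over all genes. Rpl41 stood at 5615 against 6721 CPM (0.835, 0.781 to 0.893) and Rps14 at 5125 against 6380 (0.803, 0.749 to 0.861). In the other libraries the summed ribosomal protein share was nearly equal in these bands, with ratios of 1.002 (0.995 to 1.01) in ENR and 0.999 (0.993 to 1.01) in ENR+CD, against 0.846 (0.833 to 0.859) in ENR+CV. With small RNA genes kept in the totals, the median ratio over all genes was 0.902, so 0.846 lay below it. With small RNA genes also left out of the totals, the ENR+CV ribosomal protein ratio was 0.897. The median over all genes was not recomputed on that scale.

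Within the members the small RNA share separated cells of different makeup, a split made on that share itself. In the 66 members with the lowest shares (median 1.51%) ribosomal protein genes held 12.5% of the UMIs without mt- genes, in the 67 around the middle (5.77%) 11.7%, and in the 66 with the highest shares (19.9%) 5.25%. With small RNA genes removed from the totals as well, these shares were 12.7%, 12.5% and 6.59%, so the cells with the highest small RNA shares also stood lowest on this scale. Malat1 stood at 6411, 10594 and 19325 CPM in these cells, and Epcam, an epithelial adhesion molecule, at 1700, 1271 and 809, or at 1727, 1352 and 1015 CPM with small RNA genes removed from the totals. The median mt- share was 11.4%, 14.3% and 18.9%, ribosomal RNA held 84.1%, 72.4% and 66.5% of the mitochondrial UMIs, and median depth was similar at 1341.5, 1559 and 1392.5 UMIs. The 12 epithelial genes held 0.618%, 0.639% and 0.622%, which differed little with small RNA genes kept in the totals. Epcam, itself on this list, thus fell on that scale where the list as a whole did not. The share of the list was not recomputed without small RNA genes, whose part of the totals differs between these cells by the split itself. Gm25588, itself part of the share that made the split, had 0, 10 and 42 UMIs, and nothing is read from that order.

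Over the 199 members the small RNA share was related negatively to the ribosomal protein share (Pearson r = -0.60, Spearman rho = -0.59) and positively to Malat1 (r = 0.55, rho = 0.64). All points come from 1 library, and the shares have a common denominator. The 127 comparison cells had relations of the same sign, to the ribosomal protein share (r = -0.32, rho = -0.25) and to Malat1 (r = 0.59, rho = 0.44). In the 659 cells under 4% the relation to the ribosomal protein share was near 0 (r = -0.01, rho = 0.12). It was likewise weak in the 2224 ENR cells (r = -0.05, rho = 0.12) and the 1000 ENR+CD cells (r = 0.08, rho = 0.09) with 8% or more mt-. The relation to Malat1 was positive there too (r = 0.35, rho = 0.26 in ENR and r = 0.30, rho = 0.28 in ENR+CD), and weaker in the ENR+CV cells under 4% (r = 0.13, rho = 0.10).

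**Figure D5:**
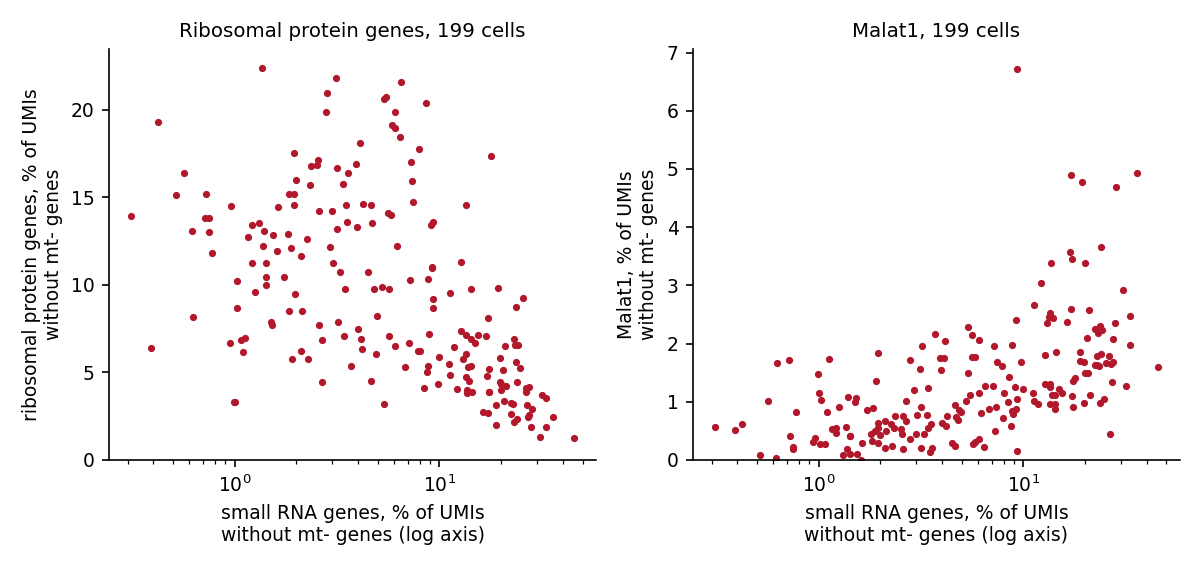
Share of ribosomal protein genes (left) and of Malat1 (right) against the share of small RNA genes (log axis) in the 199 members, all as percent of UMIs without mt- genes, 1 point per cell. Ribosomal protein shares above 10% are rare where the small RNA share is highest, and Malat1 shares are low where the small RNA share is low.

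The members were epithelial by their markers. The epithelial list held 0.627% of their UMIs, 0.600% in the comparison cells and 0.637% under 4%, and 1 of its 12 genes was past the limit, Cldn4, a tight junction claudin, at 406 against 186 CPM (2.17, 1.56 to 3.07). Epcam stood at 1308 against 1545 (0.846, 0.735 to 0.974). The intestinal stem cell list held 0.405%, 0.417% and 0.448%, with 0 of 14 genes past the limit either way. Lgr5, a marker of these stem cells, stood at 147 against 134 (1.10, 0.691 to 1.75), Smoc2 at 850 against 957 (0.888, 0.744 to 1.06) and Slc12a2 at 822 against 665 (1.24, 1.02 to 1.504). Olfm4, a secreted glycoprotein of intestinal stem cells, had too few UMIs for these counts and went the other way, with 7 UMIs in the members and 26 in the comparison cells. It stood at 24.5 CPM, 91.5 and 183 under 4% (ratio 0.267, 0.0980 to 0.633), and was named after its values were seen. Wnt targets gave 0 of 10, with Axin2 at 1.31 (0.948 to 1.82) and Sox9 at 0.649 (0.443 to 0.943). Immune markers had 12 UMIs in all members together, 11 of them H2-Ab1, a class II antigen presentation gene that intestinal epithelium can also express, with 0 for Lyz2. Stromal and endothelial markers had 4, tuft cell markers 1 and red blood cell markers 0.

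Lineage markers beyond stem cells came from few cells. Goblet genes gave 0 of 3 past the limit, and 1 member held 48.3% of the Tff3 UMIs and 64.0% of the Spink4 UMIs. Enterocyte genes gave 0 of 6, with Fabp1, a fatty acid carrier, at 1231 against 749 CPM (1.64, 1.38 to 1.96) and 66 of its 352 UMIs in 1 member. M cell genes gave 0 of 1, and enteroendocrine genes had 33 UMIs in all members and none deep enough to compare.

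Paneth cell genes were the lowest of all in ratio, through very few comparison cells. The defensin Defa24 stood at 1119 CPM in the members and 5707 in the comparison cells (0.196, 0.173 to 0.221), Defa17 at 171 and 3023 (0.0567, 0.0416 to 0.0756), the defensin-like Gm15284 at 94.4 and 1816 (0.0520, 0.0339 to 0.0765), and lysozyme Lyz1 at 346 and 1766 (0.196, 0.156 to 0.244). However, 5 of the 127 comparison cells held 87.8% of the 3286 Paneth list UMIs there. Without the 3 comparison cells and 2 members in which this list reached 5% of the UMIs, a choice made after the values were seen, Defa24 was at 1.38, Defa17 at 1.28, Gm15284 at 4.06 and Lyz1 at 1.17 times the comparison level, all reversed. The per-cell medians of the list were 0.138% and 0.125%. On the study's own list of Paneth genes, which like its other lists is not independent of the study, 4 of 18 were higher (Nupr1, Lars2, Gm15564 and mmu-mir-6236) and 4 lower (the genes just named), so the list's genes did not move together. Nupr1, a stress-response chromatin protein, stood at 199 against 88.0 (2.27, 1.39 to 3.78).

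Some S phase genes were lower. Of 9 S phase genes compared, 3 were 2-fold or more lower and 0 higher, beside 1.9% lower and 3.59% higher over all genes. Their median log2 ratio was -0.59, beside -0.15 over all genes. The lower genes were Rrm1 at 0.370 (0.206 to 0.638) and Rrm2 at 0.392 (0.200 to 0.730), the subunits of ribonucleotide reductase, and the helicase subunit Mcm7 at 0.486 (0.282 to 0.817). Pcna was at 0.683 (0.454 to 1.02) and Tyms at 0.571 (0.327 to 0.978). The list held 0.139% of the members' UMIs, 0.207% in the comparison cells and 0.208% under 4%. 2810417H13Rik, the PCNA-associated factor also named Pclaf, stood at 115 against 324 CPM (0.356, 0.232 to 0.536). Between the same bands it was at 0.840 (0.723 to 0.980) in ENR and 1.13 (0.928 to 1.38) in ENR+CD. G2 and M phase genes gave 0 of 10, with Top2a at 0.956 (0.742 to 1.23) and Hmgb2 at 0.774 (0.591 to 1.01), and held 0.270% and 0.268%.

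Nuclear genes of mitochondrial function were not higher in these cells of high mitochondrial share. The study's list of nuclear respiratory electron transport genes held 2.73% of the members' UMIs without mt- genes, 3.33% in the comparison cells and 3.77% under 4%. Small RNA genes were kept in these totals. On this list 0 of 60 genes were past the limit, and the median log2 ratio was -0.28, beside -0.15 over all genes. Cox4i1, of complex IV, stood at 2031 against 2389 CPM (0.850, 0.760 to 0.951) and Uqcrq, of complex III, at 1461 against 1788 (0.818, 0.717 to 0.932). Mitochondrial ribosomal protein genes gave 0 of 45 (median log2 ratio -0.33), with Mrpl33 at 0.717 (0.534 to 0.959) and Mrpl52 at 0.856 (0.676 to 1.08). Mitochondrial chaperones and proteases gave 1 lower of 11, the prohibitin Phb at 0.488 (0.299 to 0.780), with Hspd1 at 0.670 (0.503 to 0.890) and Hspe1 at 0.728 (0.567 to 0.932). Genes of mitochondrial DNA maintenance and transcription gave 0 of 3, with Slirp at 0.682 (0.481 to 0.960) and Ssbp1 at 1.54 (0.872 to 2.76), and mitophagy genes gave 0 of 3, with Bnip3 at 0.950 (0.668 to 1.35) and Map1lc3b at 0.802 (0.521 to 1.23).

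Few stress genes passed the 2-fold limit. Immediate early and dissociation-related genes gave 0 of 16 past the limit with a median log2 ratio of 0.29, beside -0.15 over all genes. Within it the AP-1 genes Jun (1.49, 1.25 to 1.77), Junb (1.56, 1.26 to 1.95) and Jund (1.91, 1.34 to 2.75) lay above equality, Ier2 was at 1.07 (0.908 to 1.27) and the chaperone Hspa8 was at 0.595 (0.504 to 0.701). Jun, Junb and Jund were picked after their values were seen. Apoptosis and p53 target genes gave 0 of 3, with Bax at 0.837 (0.607 to 1.15) and Cdkn1a at 0.994 (0.708 to 1.39). The integrated stress response list gave 1 lower of 7, the serine synthesis enzyme Phgdh at 0.423 (0.248 to 0.701), with its transcription factor Atf4 at 1.44 (1.14 to 1.81) and Asns at 0.816 (0.597 to 1.11). Glycolysis genes gave 0 of 12, with Aldoa at 0.866 (0.758 to 0.990) and Ldha at 0.878 (0.775 to 0.995). The study's enteroendocrine list gave 1 higher of 4, which was Malat1, while Ddx5 was at 0.915 (0.735 to 1.14).

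Among the remaining genes with the most extreme ratios, Boc, a co-receptor of Hedgehog ligands, stood at 325 against 80.9 CPM (4.02, 2.52 to 6.65), with 93 UMIs in 51 members and 23 in 23 comparison cells. It was the only gene that is not a small RNA among the 10 largest ratios of genes with at least 100 UMIs. Without the upper limit on UMIs its ratio was 1.77. At the lower end, Tma7 (0.452, 0.303 to 0.663), the pseudogene Gm8730 (0.497, 0.327 to 0.743) and the RNA helicase gene Ddx3x (0.497, 0.350 to 0.697) were past the limit, and Cops5 (0.511, 0.330 to 0.780) and 0610011F06Rik (0.516, 0.343 to 0.766) were just short of it. Ddx3x lay the other way in the other libraries, at 1.65 (1.34 to 2.05) in ENR and 1.26 (1.09 to 1.45) in ENR+CD.

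The small RNA UMIs rested on fewer reads each than the rest. In the members each small RNA UMI rested on 2.96 reads, each mt- UMI on 9.47 and each other UMI on 7.80. The small RNA value was 3.01 reads in the comparison cells and 2.98 under 4%, where other UMIs had 9.21 and 10.8. Reads per small RNA UMI were thus alike across the bands, while for other genes they were lowest in the members. The cause of these differences in reads per UMI, and their part in the results above, was not tested.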

How the data were processed

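Cells of 3 Seq-Well libraries, 1 per condition, were analysed from the tables the authors deposited, which hold whole-number UMI counts per gene and cell (and read counts per library), not normalized. Per the study and the submitters' processing notes, the authors made them with bcl2fastq and STAR alignment to mm10 on a Drop-seq portal, binned reads by cell barcode and collapsed them by UMI; tool versions, annotation and strand handling are not given in the material used here. How RNAs without a long poly(A) tail came to be captured by oligo-dT was not tested, and reads shared by near-identical copies may have been dropped or split.

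Cells with 1000 to under 8000 UMIs and at least 400 genes were kept, doublets were not called or removed, and mt- genes (33) were taken out of totals. UMIs were summed over the cells of a band and given as CPM, per 1000000 such UMIs (exact Poisson intervals; ratios and shares with exact binomial, Clopper-Pearson, 95% intervals). These levels are per gene and not per length, and were compared between cells, not between genes. A gene absent from a group allows up to 3 counts. A gene was called where it differed 2-fold with at least 50 UMIs in both bands together; p-values were not computed. Named genes were Gm25588, mt- genes of protein or ribosomal RNA, the 10 largest ratios each way with at least 100 UMIs, the 2 genes with most UMIs in each list and the 10 small RNA genes with most UMIs in the members; 1 of these small RNA genes is not reported here, and any others were chosen after their values were seen. The members, lists and marker were chosen with earlier results of these data known. Of 23271 symbols, 21756 were found in GENCODE vM21 and 1119 more only in RefSeq; small RNA classes are annotation biotypes, and miRNA sequences are RefSeq's. Alternatives were other limits, bands, depths, denominators, weights and folds. The ratio and fold rule were tested on simulated data. Python 3.11.15, NumPy 2.4.6, SciPy 1.17.1, matplotlib 3.10.9 and Biopython 1.88 were used.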

Additional observations from a re-analysis of the deposited data

Results flagged for a closer look

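Barcodes too shallow to be kept as cells, with 1000 UMIs or fewer, were used in no comparison. In the ENR+CV library 3898 such barcodes carried small RNA genes at 3.81% (3.77 to 3.85) of their UMIs without mt- genes, against 0.999% in 3349 ENR barcodes and 0.946% in 5493 ENR+CD barcodes under the same limit, which is why the value stands out. The barcodes differed in depth under that limit, since 2581 of the ENR barcodes but 717 of the ENR+CV barcodes had 500 to 1000 UMIs. Among those, the share was 4.47% in ENR+CV, 1.01% in ENR and 0.928% in ENR+CD. It lies between the ENR+CV members (8.14%) and the ENR+CV cells at 4% to under 8% (2.53%), and these barcodes had 16.3% of their UMIs on mt- genes. Gm25588 had 47 UMIs in them, against 1 in the ENR barcodes and 0 in the ENR+CD barcodes. Within the ENR+CV barcodes the small RNA share was 2.11% under 100 UMIs, 3.10% at 100 to under 200, 3.47% at 200 to under 500 and 4.47% at 500 to 1000. Whether these barcodes are cells or free RNA was not tested.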

How the results depend on the processing

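The small RNA ratio between the members and the cells at 4% to under 8% (3.22) stayed above 1 in every alternative. It was 3.79 with a limit of 10%, 10.2 against cells under 4%, 3.90 in cells of 1000 to under 2000 UMIs, 2.83 with all UMIs as denominator, 3.42 with small RNA genes also left out of it, 3.50 as a mean of cells and 3.37 without the upper UMI limit. The Gm25588 ratio (5.74) was 19.5 against cells under 4% and 4.90 to 7.34 otherwise. The count of higher genes (85) was 448 against cells under 4%, 56 in cells of 1000 to under 2000 UMIs, 361 with at least 20 UMIs, 32 with at least 100 and 196 at 1.5-fold, and of these 71, 35, 131, 23 and 56 were small RNA genes. The count of lower genes (45) was 78 with a limit of 10%, 557 against cells under 4%, 105 with all UMIs, 27 without small RNA genes, 70 as a mean of cells, 267 with at least 20 UMIs, 8 with at least 100 and 307 at 1.5-fold. Genes per member were 593.5 thinned and 763 unthinned. The Paneth list ratio (0.235) reversed to 1.25 without the cells of 5% or more Paneth UMIs, an alternative chosen after seeing the data, as did Defa17 (1.28), Defa24 (1.38), Gm15284 (4.06) and Lyz1 (1.17), and Lyz1 was also 1.13 in cells of 1000 to under 2000 UMIs. The cause was not tested except where fewer genes, fewer cells or the smaller fold follow from the setting itself. Of 279 further recomputed values for named genes and lists, 195 stayed within the counting interval of the reported value, 78 moved out of it in the same direction and 6 reversed. No paired analysis was possible because each condition is 1 library. The depth limits mainly genes such as Gm25588, with 52 and 9 UMIs, and differences between arrays cannot be measured with 1 library per condition.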
